A study of Mus musculus with 14 samples.

Results

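The 8 genes described here encode general factors that bind CpG island promoters or boundaries, namely Nrf1, Yy1, Sp1, Sp3, Gabpa, Elk4, Ctcf and Kdm2b. They were taken by name, by a rule that uses no measured value but was set with earlier results of these data known, and are 8 of 21938 protein-coding genes of the annotation (GENCODE release M21). The data are 1 set of 160144 broad H3K4me1 peaks from ChIP-seq, called sites here, 160108 of them on the chromosomes. The cells were NG3, a single clone of immortalized mouse embryo fibroblasts (iMEF) that carry Ash2l fl/fl and Cre-ER. In all groups, controls included, endogenous Ash2l had been deleted and was replaced by a lentiviral human ASH2L fused to FKBP12 F36V (FKBP-HA2-ASH2L), which is degraded when dTAG-13 is added. The libraries were a control without dTAG, which the labels call WT, and cells treated with dTAG for 30 min, 2 h, 4 h, 8 h or 16 h. Each of these 6 conditions had 2 H3K4me1 libraries, which gives 12, and 2 inputs came from the control and from 16 h.

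The set carries the start and end of each site over all samples together, with no read count, signal, replicate or time point. Nothing in it tells whether a site was present before or after ASH2L was lost, and a gap between sites may have differed between the conditions. No difference was therefore tested. The paper reports that H3K4me1 rose at a substantial number of sites after ASH2L loss, nearly all of them at promoters. It also reports an overall decrease of the mark, in which sites that lost signal lay preferentially away from promoters. Which of the sites described here gained or lost signal cannot be told from this set. The values are single positions and counts, which are set beside the same counts over all protein-coding genes, and the depth behind them is unknown. Positions are in bases from the most upstream annotated transcription start site (TSS) of the gene, with the TSS as 0, negative values upstream and positive values in the direction of transcription. The build is GRCm38.p6 (mm10).

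Mono-methylation of H3K4 is placed by the KMT2 methyltransferases, for which ASH2L is a core subunit, and is typical of enhancers and of the shoulders of active promoters. At many active promoters the nucleosomes next to the TSS carry H3K4me3 in its place, and the TSS itself is depleted of nucleosomes. Most housekeeping promoters are CpG islands, stretches rich in unmethylated CpG, and the factors whose genes are treated here read such sequence: NRF1, the SP proteins, the ETS proteins GABPA and ELK4, and YY1 bind short motifs in it, KDM2B binds CpG itself through its CXXC zinc finger, and CTCF binds boundaries and many promoters.

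All 8 genes had an H3K4me1 site within 1 kb of the TSS, which held for 63.9% of all protein-coding genes and for 93.0% of the 11802 with a CpG island within the same distance. Since all 8 have such an island, the second share is the one to set beside their count. The sites took 2 forms. At Nrf1, Yy1 and Sp1 the TSS was free of sites and lay between an upstream and a downstream site, a form found at 23.7% of island promoters. At Sp3, Gabpa, Elk4, Ctcf and Kdm2b the TSS lay inside a site, as at 56.6% of island promoters. In shares, 37.5% of the 8 genes had the first form and 62.5% the second. The 2 kb around the TSS were covered by sites to between 32.4% at Sp1 and 100% at Elk4 and Ctcf, with a median of 87.8% over the 8 genes against 67.5% over island promoters.

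**Figure D1:**
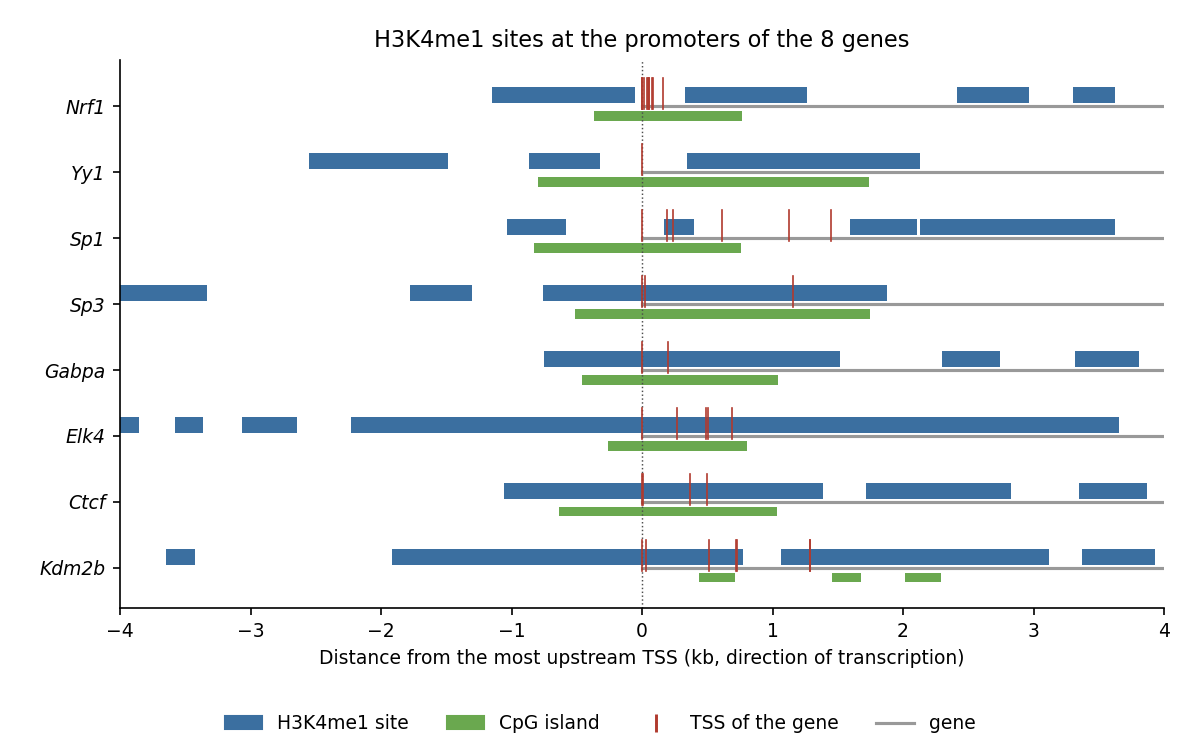
H3K4me1 sites (blue), CpG islands (green) and annotated TSSs (red ticks) of the 8 genes over 4 kb on either side of the most upstream TSS, in kb and in the direction of transcriptionand with the gene as a grey line. The TSSs of Nrf1 and Yy1 and the first TSS of Sp1 stand between sites, and the first TSS of each of the other genes stands inside 1 wide site.

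Nrf1, nuclear respiratory factor 1, is an activator of mitochondrial and other housekeeping genes. It lies at chr6:30047988-30153458 on the plus strand. The upstream site was 1095 bp wide and ran from -1147 to -53, and the downstream site was 932 bp wide and ran from 331 to 1262. The gap between them was 383 bp. It was near the typical gap of island promoters of this form, whose median over 2794 genes was 421 bp and whose middle part ran from 338 to 567 bp (25th to 75th percentile). The gap held all 10 TSSs of the first promoter, which lie between 0 and 163. Of its bases, 294 are annotated as 5′ untranslated exon of Nrf1 transcripts, 37 as intron and 52 as upstream sequence, and the downstream site lies in intronic sequence over 894 of its 932 bp. The gap was set off to the downstream side, so that 94.8% of the kilobase before the TSS but 66.9% of the kilobase after it were covered. The CpG island of 1131 bp reached from -366 to 764, thus beyond the gap on either side, and 66.1% of it was covered.

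Yy1, a zinc finger factor that activates or represses depending on context, lies at chr12:108792973-108820148 on the plus strand. Its gap was wider, 663 bp, between a 545 bp site from -865 to -321 and a 1788 bp site from 343 to 2130. Of the island promoters between 2 sites, 84.8% had a narrower gap, against 40.5% for the gap of Nrf1. The gap was nearly symmetric about the TSS, with 54.5% of the upstream and 65.7% of the downstream kilobase covered. The downstream site covered 679 bp of coding sequence in the first exon, whereas that of Nrf1 covered none. The island was the longest at the 8 promoters, 2539 bp with 360 CpGs, and 73.9% of it was covered. On the opposite strand Gm34220, an annotated gene to be experimentally tested, starts at -230, inside the same gap.

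Sp1, the founding member of the GC box factors, lies at chr15:102406143-102436404 on the plus strand. The gap was 749 bp, the widest of the 3 genes, and 88.5% of island promoters of this form had a narrower one. It lay between a 455 bp site from -1035 to -581 and a site of only 227 bp from 169 to 395. These were the narrowest flanking sites of the 3 genes, and the promoter was the least covered of all 8 genes, with 42.0% of the upstream and 22.7% of the downstream kilobase. The form also depended on the TSS used. The TSS of the APPRIS principal transcript (237), the annotation's choice of the main isoform, and that of RefSeq (173) lie inside the 227 bp site. When sites under 500 bp were left out, Sp1 had no promoter site.

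The sequences at these 3 site-free starts are shown because these starts lie between the H3K4me1 shoulders. The stretches of Yy1 and Sp1 lie wholly in the gap, and that of Nrf1 enters it at -52. Each runs from 250 bases before the TSS through the first 30 transcribed bases, 5′ to 3′ on the strand of the gene, at chr6:30047738-30048017 (plus strand), chr12:108792723-108793002 (plus) and chr15:102405893-102406172 (plus) of GRCm38.p6. Capitals mark matches to the words searched below, namely GC boxes, CCAAT and the CRE.
Nrf1: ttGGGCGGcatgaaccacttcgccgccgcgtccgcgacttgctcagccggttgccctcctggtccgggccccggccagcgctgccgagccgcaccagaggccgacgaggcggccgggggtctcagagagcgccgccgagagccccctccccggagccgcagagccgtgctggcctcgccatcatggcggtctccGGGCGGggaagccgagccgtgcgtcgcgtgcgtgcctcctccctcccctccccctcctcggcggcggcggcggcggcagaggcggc
Yy1: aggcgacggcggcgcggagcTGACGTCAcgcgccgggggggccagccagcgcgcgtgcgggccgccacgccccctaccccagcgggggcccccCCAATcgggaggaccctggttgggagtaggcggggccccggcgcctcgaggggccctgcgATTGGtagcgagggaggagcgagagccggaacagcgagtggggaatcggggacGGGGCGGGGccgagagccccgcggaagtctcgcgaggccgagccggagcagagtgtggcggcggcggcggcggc
Sp1: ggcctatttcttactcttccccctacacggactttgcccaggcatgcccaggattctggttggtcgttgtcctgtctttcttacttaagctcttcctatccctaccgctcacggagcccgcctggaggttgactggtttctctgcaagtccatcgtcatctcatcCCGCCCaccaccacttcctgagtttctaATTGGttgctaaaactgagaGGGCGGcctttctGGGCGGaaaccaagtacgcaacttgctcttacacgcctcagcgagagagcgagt
The Nrf1 and Yy1 stretches were dense in CpG, with 40 and 41 CpGs and a GC content of 77.5% and 78.6%, whereas that of Sp1 held 13 CpGs at 53.9% GC. The same contrast held for the gaps as a whole. They carried 13.8 CpGs per 100 bp at Nrf1 and 13.9 at Yy1, more than their flanking sites (10.5 and 13.3, in up to 500 bp of each site). The gap of Sp1 had 4.94 CpGs per 100 bp against 9.24 in its flanking sites. Over the 2794 island promoters of this form the medians were 8.64 in the gap and 5.60 in the flanking sites, so Sp1 differed from the median promoter in that its gap was poorer in CpG than its shoulders.

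Sp3, a GC box factor closely related to SP1, lies at chr2:72936427-72980446 on the minus strand. A site of 2635 bp ran across the TSS from -758 to 1876, and all of the 2254 bp island lay inside it. Gabpa, the DNA-binding subunit of the GA-binding protein, lies at chr16:84834925-84863779 on the plus strand. Its site of 2268 bp ran from -752 to 1515 and also held the whole island, of 1498 bp. At Sp3 the site ended shortly beyond the downstream edge of the island, which lay at 1743. At Gabpa it ended further beyond that edge, which lay at 1041. The Gabpa promoter is shared with Atp5j on the opposite strand, a subunit of the mitochondrial ATP synthase. It has 9 TSSs between -686 and 700, and all of them lay inside the same site. At Sp3 the antisense transcript Sp3os has a start at 930 inside the site.

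Elk4, an ETS factor that acts together with the serum response factor, lies at chr1:132007607-132032612 on the plus strand. Its site was by far the widest of the 8 genes, 5885 bp from -2227 to 3657, and 96.4% of the 6684 island promoters with a covered TSS had a narrower one. The island of 1070 bp took up only a small part of it. A run of 4 further sites of 217 to 973 bp continued upstream to -5628, separated by gaps of 276 to 304 bp, and a gap of 414 bp divided them from the wide site. No other of the 8 promoters was covered over such a length.

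Ctcf, the insulator and loop anchor factor, lies at chr8:105636568-105682922 on the plus strand. A site of 2445 bp covered it from -1055 to 1389 with the island of 1668 bp inside. On the opposite strand Agrp, which encodes a neuropeptide of the hypothalamus, has 1 annotated start within 1 kb, its most upstream, at 825. Any starts of Agrp further away were not examined. The long non-coding RNA Gm5914 has starts at 782 and 917, and all of these starts lay in that site. Kdm2b, which brings a variant Polycomb repressive complex to CpG islands, lies at chr5:122870665-122989823 on the minus strand. Its site of 2689 bp ran from -1914 to 774 and ended just after the TSS of the APPRIS principal transcript at 724. A gap of 290 bp followed, and the next site, of 2056 bp, began at 1065 and held the next group of TSSs, at 1287 and 1290. Kdm2b was the only one of the 8 genes whose most upstream TSS did not lie in an island. Its first island, of 275 bp, began at 436, and the 2 kb around the TSS held 68 CpGs, against 134 to 254 at the other genes and a median of 95.0 over island promoters. The antisense transcript A930024E05Rik starts at 469, inside the first site.

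The sites over the TSS of Sp3, Gabpa, Ctcf and Kdm2b were of common width for their form. They were wider than between 60.2% (Gabpa) and 71.6% (Kdm2b) of the island promoters with a covered TSS, whose median was 1979 bp.

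**Figure D2:**
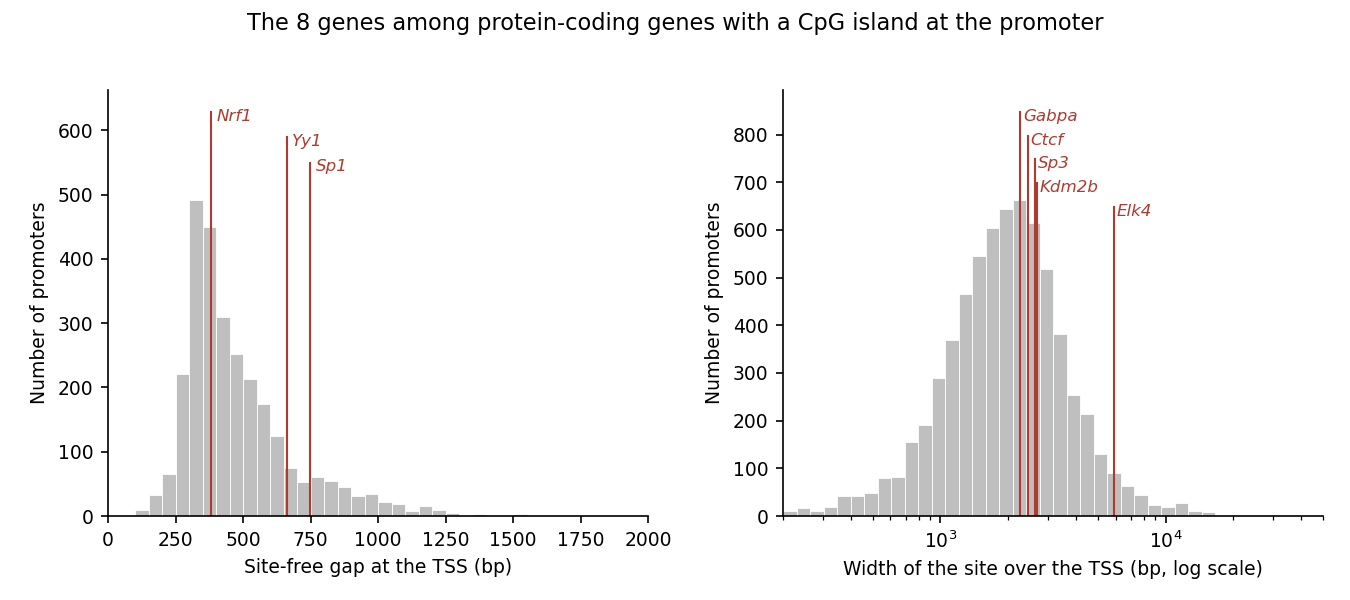
Histograms of numbers of promoters for coding genes whose promoter has a CpG island: left, width of the site-free gap at the TSS in bp for 2794 promoters between 2 sites; right, width of the site over the TSS in bp on a log axis for 6684 promoters. Red lines mark the 8 genes: Nrf1 (383 bp) is near the peak of the gaps, Yy1 (663 bp) and Sp1 (749 bp) are in the upper tail, and Elk4 (5885 bp) is in the upper tail of the site widths.

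To see whether the promoters of these factors hold words that the factors themselves read, 9 short consensus words were searched on both strands in 300 bases, 250 before and 50 from the TSS on. These were GCGCANGCG for NRF1, GGGGCGGGG and the shorter GGGCGG contained in it for SP and KLF factors, CCGGAAGT for ETS factors, AANATGGCG for YY1, AGNGGGCGC for CTCF, CCAAT for NFY, TGACGTCA for CREB and ATF (the CRE) and TATAAA for the TATA box. The ETS word was found at 3 of the 8 promoters, against 4.70% of all protein-coding and 7.60% of island promoters. Of these 3, Gabpa and Elk4 encode ETS factors themselves, and the other was Sp3. The 30 bases around the words are shown for comparison, on the strand of the gene, with the word in capitals, at chr2:72980457-72980486 (minus strand), chr16:84834847-84834876 (plus) and chr1:132007541-132007570 (plus).
Sp3: agaggggcggaACTTCCGGgcgggctgtcg
Gabpa: gccaccgttctACTTCCGGccctggctccg
Elk4: cggcccctcccCCGGAAGTgacgctcgcgc
The word read towards the gene at Elk4 and away from it at Sp3 and Gabpa. It lay from -29 to -22 at Sp3, from -67 to -60 at Gabpa and from -55 to -48 at Elk4, in each case inside the H3K4me1 site. At Sp3 its last bases overlapped a GC box at -23. The YY1 word was found at 1 promoter, that of Ctcf, from -21 to -13 and on the opposite strand, against 4.64% of island promoters. It is shown with its surroundings at chr8:105636537-105636566 (plus strand).
Ctcf: accgcgccgcCGCCATTTTgtgtccgagcc
The short GC box was present at 5 promoters, Nrf1, Yy1, Sp1, Sp3 and Ctcf, which is 62.5% of the 8 genes, near the 67.3% of island promoters that hold it. Sp1 and Sp3, the genes of GC box factors, had 3 and 2 such matches, but Nrf1 had 2 as well, and Yy1 and Ctcf had 1 each. The matches in Sp1 lay in the site-free gap. In this window the long GC box occurred at Yy1 only (23.8% of island promoters), and with the TSSs of APPRIS principal transcripts at 2 of the 8 promoters. CCAAT was found at Yy1, Sp1 and Sp3 (37.7%), and at 5 promoters when the window was widened to 500 bases before and 100 after the TSS. The CRE was found at Yy1 (3.50%). The NRF1 word was absent from this window in all 8 promoters, Nrf1 included, where 13.8% of island promoters hold it. The CTCF word (5.72%) and the TATA word (6.52%) were absent as well. Kdm2b held none of the 9 words in this window, but its most upstream TSS lies outside an island and its principal TSS is at 724. With principal TSSs the short GC box was at 6 promoters in place of 5. These are matches of letters in 8 promoters, and binding was not measured here.

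The 8 genes have 71 annotated transcripts with 65 distinct TSSs. Among these, the models that begin at 68127 in Nrf1, 13266 in Yy1, 10201 in Elk4 and 101243 in Kdm2b are annotated as lacking a found mRNA start. Their first bases were counted as TSSs here but need not be start sites. Of the TSSs, 29 lay inside a site, 14 between 2 sites, 4 beside a site on 1 side only, and 18 had no site within 1 kb. When TSSs within 500 bp of each other were joined, 36 groups resulted, and 18 of them (50.0%) had a site within 1 kb, against 45.7% of such groups over all protein-coding genes. Of the 28 inner groups, which start downstream of the first promoter, 10 (35.7%) had a site, near the 33.4% of inner groups of island genes. Both shares were near the background. The genes were uneven among themselves: 7 of the 10 inner groups with a site belonged to Kdm2b, whose inner groups had a site in 53.8% of cases, against 3 of 15 for the other genes. When only protein-coding transcripts were used, 17 groups remained and 14 of them (82.4%) had a site, against 56.0% of the groups made in the same way over all protein-coding genes. Most of the groups without a site thus rest on non-coding models, and the share of the 8 genes depends on whether these are counted. Of the coding groups without a site, those at 68127 in Nrf1 and 101243 in Kdm2b are models without a found mRNA start. The 45.7% and the 56.0% include genes without an island, whereas all 8 genes have one. At the most upstream TSS alone, 93.0% of island genes had a site against 63.9% of all protein-coding genes. The share of coding groups over island genes only was not computed, so the difference from 56.0% is not read as a trait of the 8 genes.

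Kdm2b showed the clearest alternative promoter. The coding transcript that starts at 89468 begins inside a site of 3536 bp, the widest of the gene, which ran from 88546 to 92081. The site held an island of 1258 bp with 175 CpGs over its full length, more CpG than any other island of the gene. The site was preceded by 24121 bp without another. Another inner promoter lay at 37317 and 37833, in a 2378 bp site from 37077 to 39454 with an island of 436 bp. A TSS at 108738 lay near an island of 202 bp, and neither had a site. Together 5 of the 6 islands of Kdm2b were covered over their full length.

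In Nrf1 the inner group at 41901 to 41946, with 5 coding transcripts and a principal one among them, differed from these. Its 3 TSSs lay in a narrow site of 303 bp from 41897 to 42199, and no island was within 1 kb. The site thus began right at the TSSs. It was 1 of 17 sites beyond 10 kb in the gene, and 1 of the 9 sites between 30719 and 44096. The other inner TSSs of Nrf1, at 28333, 49795 and 68127, had no site, and the model at 68127 has no found mRNA start. In Sp1 the second group, at 1126 and 1445, had a site of 512 bp from 1592 on, and in Sp3 the non-coding transcript at 1160 started inside the promoter site. The inner TSSs of Yy1, Gabpa, Elk4 and Ctcf had no site within 1 kb. The inner TSS of Yy1, at 13266, and that of Elk4 at 10201 belong to models without a found mRNA start.

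Over the genes with 10 kb on either side there were 79 sites. Of these, 44 (55.7%) were intronic, 11 lay at the first promoter, 8 touched an exon elsewhere, 11 lay in the upstream and 5 in the downstream flank. Their median width of 561 bp was close to that of all sites, 603 bp. The share of the locus covered by sites ranged from 6.14% at Ctcf to 19.3% at Sp1, with a median of 13.1%, against 7.60% over the loci of all protein-coding genes, which include many without any site.

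**Figure D3:**
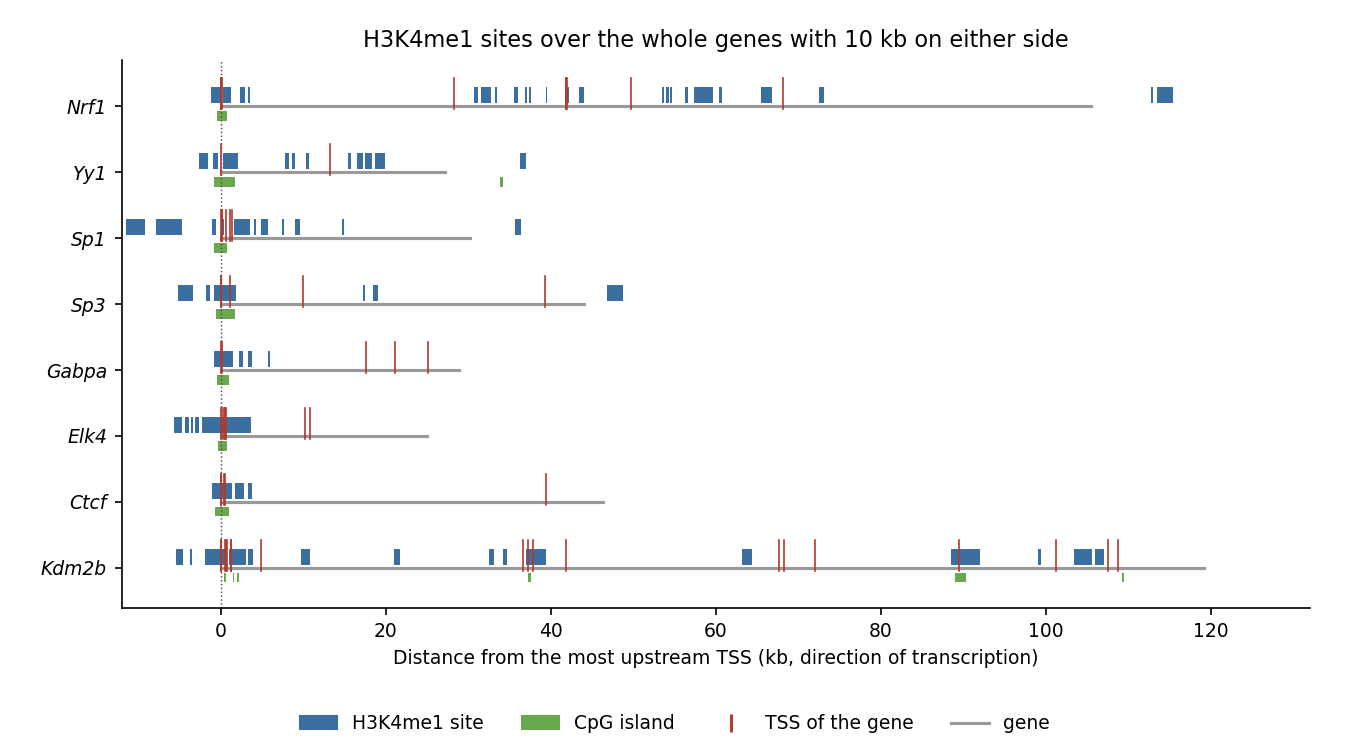
H3K4me1 sites (blue), CpG islands (green) and annotated TSSs (red ticks) over the whole of the 8 genes with 10 kb on either side, in kb from the most upstream TSSand with the gene as a grey line. Inside the gene, Gabpa, Elk4 and Ctcf carry sites up to 5997, 3657 and 3872 bases from the TSS and none further on, and Nrf1, Yy1 and Kdm2b have clusters far inside the gene.

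Nrf1 had the most sites, 23, of which 17 were intronic and 2 were at the promoter. They fell into clusters. After the promoter and a pair of sites up to 3625, 27093 bp were free of sites, then 9 sites followed up to 44096 and 8 more from 53476 to 73106. The widest was an intronic site of 2240 bp from 57405 to 59644. The last 32364 bp of the gene had none. The upstream flank held no further site, and the downstream flank had 2, of 265 and 1962 bp. Per length, Nrf1 had 1.83 sites per 10 kb, more than 84.4% of protein-coding loci. Those loci include genes without an island and many without any site, which holds for the ranks of Yy1 and Sp1 below as well.

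Yy1 and Sp1 were denser still, with 2.33 and 2.39 sites per 10 kb, above 93.0% and 93.7% of the loci. The 11 sites of Yy1 comprised 7 in introns, of which 4 were clustered between 15455 and 19924 with gaps of 295 to 820 bp. Its upstream flank held a site of 1070 bp from -2555 to -1486. Of the 12 sites of Sp1, the widest were not at the promoter but upstream of it. One of 2278 bp ran from -11448 to -9171, across the edge of the 10 kb flank, and one of 3206 bp ran from -7826 to -4621. In the gene, sites of 512 and 1493 bp from 1592 to 3625 were only 29 bp apart, and a single narrow site of 228 bp lay beyond 10 kb.

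Per length, the other genes had fewer sites, between 0.452 per 10 kb at Ctcf and 1.11 at Elk4. In bases covered, Elk4 equalled Yy1 with 17.8% of the locus, and Kdm2b, with 14.2%, exceeded Nrf1. Sp3, Gabpa and Ctcf, at 11.8%, 7.03% and 6.14%, were below Nrf1. Sp3 had 6 sites, at 0.937 per 10 kb, with a pair of intronic sites between 17238 and 19036 and a site of 1963 bp past its 3′ end, from 46880. Gabpa had 4 and Ctcf 3, all at the promoter or in the first part of the gene. The last covered base was at 5997 in Gabpa, at 3872 in Ctcf and at 3657 in Elk4. The rest of these genes was free of sites, 22857 bp or 79.2% of Gabpa, 42482 bp or 91.6% of Ctcf, and 21348 bp or 85.4% of Elk4. The 5 sites of Elk4 were the wide one and the 4 upstream of it. Thus 3 of the 8 genes (37.5%) had no site beyond 10 kb inside the gene, against 21.7% of 6309 island genes of at least 20 kb with a promoter site. This limit of 10 kb was chosen after the values were seen. Kdm2b, the longest gene with 119159 bp, had 15 sites and 10 of them beyond 10 kb, of up to 3536 bp.

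There were 14 CpG islands in the 8 loci, and sites overlapped 12 of them (85.7%), against 79.5% of 15132 islands in the loci of all protein-coding genes. Of the 14, 9 (64.3%) were covered over their full length, against 44.8% of those in all loci. The 3 that were covered in part were the promoter islands of Nrf1 (66.1%), Yy1 (73.9%) and Sp1 (30.1%), each of which has the TSS gap inside it. At Sp1 the island also runs on past the downstream site, which ended at 395, to 757. Those without a site were the 202 bp island near the end of Kdm2b and a 354 bp island downstream of Yy1, from 33898 to 34251. All 8 islands of at least 500 bp had a site, as did 89.2% of islands of that length in all loci.

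The 8 genes were set beside their relatives, 86 further genes in 7 lists (SP factors, ETS factors, YY1 relatives and partners, CTCF and cohesin, CXXC CpG binders, variant PRC1 partners of KDM2B, and other general promoter factors). Of the 86, 67 (77.9%) had a promoter site, and of the 63 with an island, 60 (95.2%) had one. A TSS inside a site was found at 25 (39.7%) of these 63 and a TSS between 2 sites at 24 (38.1%). Over all island genes these shares were 56.6% and 23.7%, and over all protein-coding genes 39.5% and 13.7%. The median gap of the 25 relatives between 2 sites, islands or not, was 458 bp. The median promoter coverage of the 86 was 51.9%, against 43.8% over all protein-coding genes and 67.5% over island promoters.

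**Figure D4:**
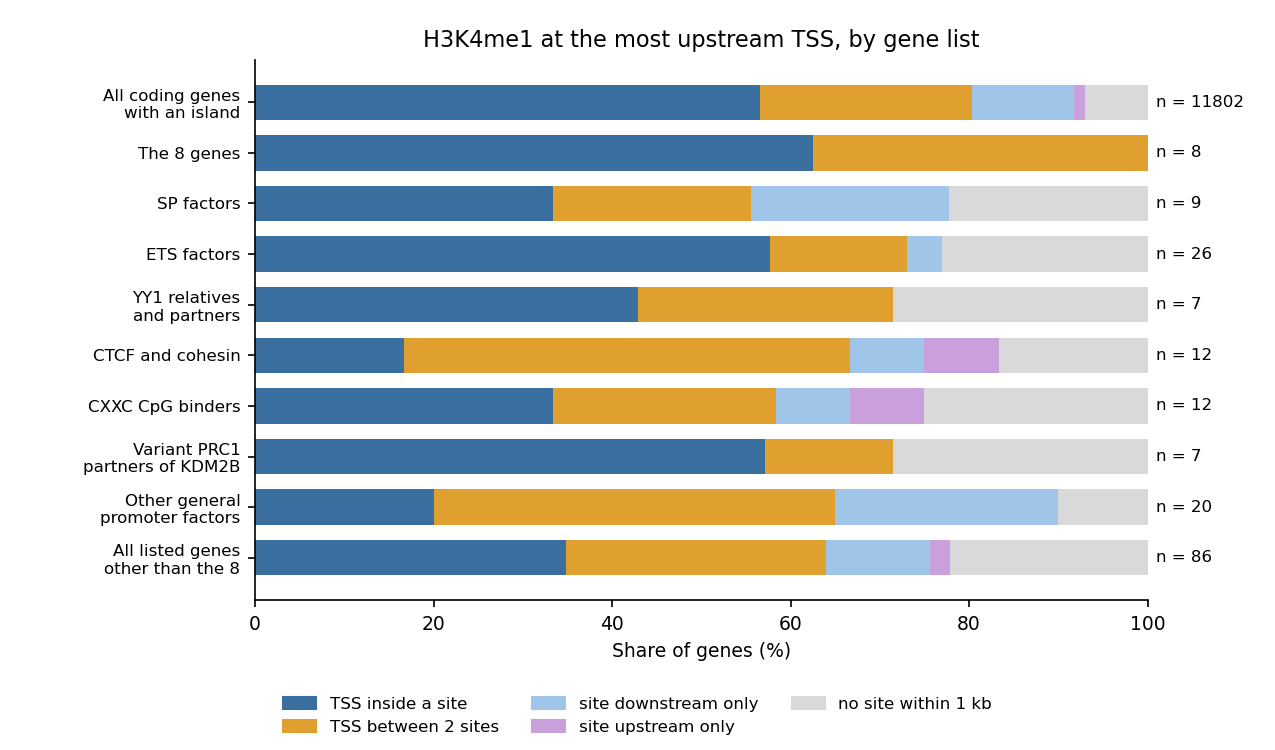
Share of genes in percent by the position of the most upstream TSS relative to H3K4me1 sites, for the 11802 coding genes whose promoter has a CpG island, the 8 genes, the 7 lists of relatives (members of the 8 included) and the 86 relatives without them; n is the number of genes. In the list of CTCF and cohesin, 6 of 12 genes stand between 2 sites, and in the ETS list 15 of 26 stand inside a site. The lists include genes without an island. Over all protein-coding genes, 13.7% stand between 2 sites and 39.5% inside a site.

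In the ETS list, 16 of 26 genes had an island and 15 of 26 had a covered TSS (39.5% of all protein-coding genes). Besides Gabpa and Elk4 these were 13 others, among them Gabpb1 and Gabpb2, the genes of the partner subunits of GABPA, with sites of 1703 and 1852 bp, and Elk3 with 3557 bp. Of its 6 genes without a promoter site, 5 had no island (Spi1, Spib, Ehf, Elf3 and Spdef) and 1 did (Fev). Spi1 encodes a haematopoietic factor, and Ehf, Elf3 and Spdef encode epithelial ones. ETS genes of such lineages were not uniformly without a site, since Elf5, an epithelial factor, and Fli1 and Erg, factors of blood and endothelium, had a covered TSS with sites of 1413, 4275 and 3557 bp. The gaps ranged from 309 bp at Elf1 to 630 bp at Elf4. In the list of CTCF and cohesin, only Ctcf and Nipbl, the cohesin loader, had a covered TSS. The genes of the cohesin ring Smc3 and Rad21 had gaps of 1062 and 669 bp, and the narrowest gap of the list was 546 bp at Wapl, the release factor. Ctcfl, a testis paralogue of Ctcf, and Stag1 had no promoter site.

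Of the 9 SP genes, Sp2 and Sp6 had no promoter site, and Sp4 had a gap of 345 bp, which was narrower than that of Sp1. In the YY1 list, Yy2 and Zfp42, retroposed relatives of Yy1, had no site in their whole locus, and Rybp, a YY1 binding protein of variant Polycomb complexes, had a gap of 382 bp. Of the 12 CXXC genes, Dnmt1, Tet1 and Tet3 had no site at the most upstream TSS, and the gaps ran from 303 bp at Kmt2a to 715 bp at Kmt2b, which encode H3K4 methyltransferases. Kdm2a, the paralogue of Kdm2b, had a covered TSS with a site of 890 bp. Of the 7 variant PRC1 partners, Bcor and Usp7 had no promoter site, and Bcorl1 had the only gap, of 684 bp. Of the 20 other general factors, 19 had an island. Between 2 sites were 9 of the 20 (23.7% of island genes) and 4 were covered (56.6%). The gaps ran from 303 bp at Nfe2l1 to 1238 bp at Tbp, the TATA-binding protein. Nfya and Nfyc, subunits of the CCAAT factor, had no promoter site. The most upstream TSS is not the main one in every gene, so a gene without a site at it can have one at a later TSS.

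The protein-coding genes most like each of the 8 in the covered bases of the 6 kb around the TSS were found by the share of bases covered in both among the bases covered in either, over 21937 genes. This share was highest for Elk4, 97.9% with C1qtnf1, and lowest for Sp1, 76.6% with Xirp1. The next were Kdm2b with Ppp1r13l (93.8%), Ctcf with Zfp580 (93.7%), Sp3 with Tmem173 (93.1%), Gabpa with Cmss1 (91.5%), Nrf1 with Zfp790 (82.6%) and Yy1 with Smarcd2 (81.1%). Of these, Smarcd2 also had a TSS between 2 sites, with a gap of 605 bp. Zfp790 had a covered TSS, and Xirp1 had a site upstream only, so the genes most like Nrf1 and Sp1 had another form at the TSS than these. The median share over all genes was 8.70% for Sp1 and between 19.2% and 32.1% for the other 7. Among the 8 genes, the pair most alike was Elk4 and Kdm2b (82.8%) and the least alike Sp1 and Sp3 (15.4%), the genes of the paralogous factors.

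As a check of the labelled cell type, promoters of marker genes were looked up. A site was present at 9 of 10 fibroblast and mesenchymal markers (Col3a1 lacked one), with a median promoter coverage of 98.8%. It was present at 1 of 5 haematopoietic, 2 of 4 endothelial and 0 of 4 pluripotent markers. Epithelial (4 of 5) and neuronal markers (3 of 4) had sites as well, with a median coverage of 56.2% and 16.2%. Over all protein-coding genes 63.9% had a promoter site, and over those with an island 93.0%. Islands were present at 5 of 10 fibroblast, 4 of 5 epithelial and 1 of 4 neuronal markers. They were present at 0 of 5 haematopoietic, 0 of 4 endothelial and 0 of 4 pluripotent markers. The counts of sites thus cannot be separated from the islands and do not by themselves tell the cell type. H3K4me1 at a promoter is no measure of its activity.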

How the data were processed

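H3K4me1 was measured by ChIP-seq. The authors' steps were trimming (Trim Galore), alignment to mm10 (BWA), filtering (SAMtools), merging of replicates (Picard) and broad peak calling (Macs). Versions and thresholds are not given in the sources used here. The deposited table used here holds peak starts and ends in bases, 1 set over all samples, with no score, count or depth, so a peak that all libraries share and one seen in few look alike. The study's list of changed sites per time point was not analysed here. Starts are counted from 0 there and from 1 here. Of 160144 sites, 36 on scaffolds were left out.

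Overlaps were computed in Python (numpy, numba) with GRCm38.p6 and GENCODE M21. Promoters were 1 kb on either side of the most upstream TSS. Islands were called on repeat-masked sequence (score 17 per CpG and -1 per other base, over 200 bp, GC at least 50%, observed to expected CpG over 0.6), which gave 16099. An island promoter had an island within 1 kb. A percentile is a mid-rank, the share of genes with a lower value plus part of those with an equal value, the gene itself included. Functions were tested on simulated data.

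The 8 genes, lists, words and naming rule were chosen with earlier results of these data known. The rule named the 8 genes, genes with a TSS within 1 kb of theirs, of each list those without a promoter site (up to 6) and the widest and narrowest gap, and the most similar promoter. Other genes of the lists were named after their values were seen.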

Additional observations from a re-analysis of the deposited data

How the results depend on the processing

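No paired analysis was possible because the peak set is pooled over all samples and carries no replicate. For the same reason no library could be left out, and which libraries a site rests on was not tested. Of 52 alternatives for 9 values, 48 planned and 4 added after seeing the data (TSSs from the RefSeq promoters), 51 left the value within 1.5 times, where counts were compared as counts. The exception was the number of sites over the 8 loci, which fell from 79 to 47 once narrower ones than 500 bp were dropped. As a share, the groups of TSSs with a site moved by more, from 50.0% (18 of 36) to 82.4% (14 of 17) with protein-coding transcripts only. Of the single words, CCAAT went from 3 to 5 promoters in the wider window and the long GC box from 1 to 2 with principal TSSs. Sp1 was the gene that changed form. It left the genes with a site-free TSS between 2 sites, which then were 2 of 8 with a median gap of 523 bp in place of 3 with 663 bp, with the TSSs of APPRIS principal transcripts, with RefSeq promoters, with a window of 500 bp and with sites of at least 500 bp. With sites of at least 500 bp the genes with a promoter site were 7 of 8, and 8 of 8 under every other alternative run. The depth of the libraries is unknown, so a missing site cannot be told apart from a signal below the calling threshold.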
